A study of Homo sapiens with 6 samples.

Results

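The genes described here were 10 members of the MHC class II system: the peptide-binding chains HLA-DPA1, HLA-DPB1, HLA-DRA, HLA-DRB1 and HLA-DQB1, the peptide editors HLA-DMA and HLA-DMB, their inhibitor HLA-DOB, the invariant chain CD74 and the transactivator CIITA. They are 10 of the 19775 genes that the array measures on their own, and were read by 25 of the 54675 probe sets (groups of short probes for 1 transcript) of the Affymetrix Human Genome U133 Plus 2.0 array, taken as those whose annotation lists 1 of these symbols alone. A further 5 probe sets list several HLA-D genes and are reported apart. The genes were picked with their difference between these groups already known, so their values are given as a description and no p-value is attached to them. All samples were cultures of Cal27, an epithelial cell line derived from a carcinoma of the human tongue, grown in medium with serum, and the sources name no cytokine treatment. In the LV-shIL-1β group (3 arrays) a lentivirus delivered a short hairpin that targets the interleukin-1β transcript, and in the LV-shNC group (3 arrays) it delivered a scrambled hairpin. Both were stable lines selected in puromycin at 2 µg/mL for 2 weeks, with 1 hairpin in each group, so effects of the hairpin's sequence and of its target cannot be told apart. The sources do not state that replicate arrays are separate cultures, and the spread between them may be technical. RNA came from whole cultures, so a higher transcript level per cell and more cells carrying the transcript cannot be told apart.

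MHC class II molecules are pairs of an α and a β chain that display peptides from the endosomal pathway to CD4+ T cells. In the endoplasmic reticulum the pair is held by the invariant chain, and in the endosome HLA-DM exchanges the remaining invariant chain fragment for other peptides, while HLA-DO holds HLA-DM back. The genes are constitutive in professional antigen-presenting cells, and in many epithelial cells they are induced by interferon-γ through CIITA, a coactivator that does not bind DNA itself and docks on the factors RFX, CREB and NF-Y at a conserved promoter module of W/S, X and Y boxes.

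HLA-DRA and CIITA had no entry in the promoter table used here, so their promoters were not searched. The 250 bases before the gene start are shown for the 7 members in which letters of the promoter module were found. These letters can be read beside the values below. Capitals mark exact matches on either strand to ACNGATG, the letters of the end of the X box bound by RFX, and to ATTGG. The letters ATTGG are those of the Y box bound by NF-Y, and CCAAT is ATTGG read from the other strand. The windows are from RefSeq, build GRCh38.p14, and are written 5′ to 3′ in the direction of the gene: HLA-DRB1 at chr6:32589849-32590098 (minus strand), HLA-DQB1 at chr6:32666658-32666907 (minus strand), HLA-DMA at chr6:32953098-32953347 (minus strand), HLA-DMB at chr6:32941029-32941278 (minus strand), HLA-DPB1 at chr6:33075740-33075989 (plus strand), HLA-DOB at chr6:32817003-32817252 (minus strand) and CD74 at chr5:150412911-150413160 (minus strand).
HLA-DRB1: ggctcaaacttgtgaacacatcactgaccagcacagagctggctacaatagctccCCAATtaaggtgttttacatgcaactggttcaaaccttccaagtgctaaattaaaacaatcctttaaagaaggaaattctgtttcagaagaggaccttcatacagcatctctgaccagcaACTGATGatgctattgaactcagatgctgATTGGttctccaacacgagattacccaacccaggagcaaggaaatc
HLA-DQB1: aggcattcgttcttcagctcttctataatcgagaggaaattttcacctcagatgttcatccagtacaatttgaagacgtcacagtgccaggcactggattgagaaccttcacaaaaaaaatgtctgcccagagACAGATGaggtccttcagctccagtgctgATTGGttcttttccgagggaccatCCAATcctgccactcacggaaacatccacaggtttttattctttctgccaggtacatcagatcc
HLA-DMA: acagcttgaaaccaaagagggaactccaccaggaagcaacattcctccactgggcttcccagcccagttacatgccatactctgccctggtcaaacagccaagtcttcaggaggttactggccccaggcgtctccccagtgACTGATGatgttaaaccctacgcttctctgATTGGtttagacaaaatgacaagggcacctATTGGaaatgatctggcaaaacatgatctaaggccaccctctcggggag
HLA-DMB: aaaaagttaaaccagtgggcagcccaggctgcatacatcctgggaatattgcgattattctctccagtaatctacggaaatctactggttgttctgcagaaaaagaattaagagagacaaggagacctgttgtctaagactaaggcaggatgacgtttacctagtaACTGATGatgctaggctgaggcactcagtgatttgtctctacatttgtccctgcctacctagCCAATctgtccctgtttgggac
HLA-DPB1: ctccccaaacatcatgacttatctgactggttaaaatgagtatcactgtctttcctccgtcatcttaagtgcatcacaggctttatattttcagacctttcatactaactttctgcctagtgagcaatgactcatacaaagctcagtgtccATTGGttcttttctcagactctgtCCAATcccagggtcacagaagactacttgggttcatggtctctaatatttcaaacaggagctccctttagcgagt
HLA-DOB: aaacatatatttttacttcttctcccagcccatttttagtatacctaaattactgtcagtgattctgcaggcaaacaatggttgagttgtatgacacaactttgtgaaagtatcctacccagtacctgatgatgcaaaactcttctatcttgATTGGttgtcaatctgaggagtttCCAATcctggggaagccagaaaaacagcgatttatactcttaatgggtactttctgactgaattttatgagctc
CD74: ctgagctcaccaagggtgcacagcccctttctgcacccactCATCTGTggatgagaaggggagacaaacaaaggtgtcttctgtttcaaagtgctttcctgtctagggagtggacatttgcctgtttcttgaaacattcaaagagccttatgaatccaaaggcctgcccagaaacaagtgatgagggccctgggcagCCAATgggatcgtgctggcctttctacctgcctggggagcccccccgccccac

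HLA-DRB1, HLA-DQB1 and HLA-DMA each held ACNGATG followed by ATTGG in 1 orientation with 8 to 30 bases between them. The X box end began 75 bases before the start of HLA-DRB1, 117 before HLA-DQB1 and 109 before HLA-DMA, and the bases between the boxes were 22, 22 and 23. HLA-DMB held the X box end in the direction of the gene and a Y box only on the other strand. HLA-DPB1 and HLA-DOB held exact matches to the Y box letters alone. In HLA-DOB, the letters cctgatg before ATTGG differ from ACNGATG in the first letter and were not counted. CD74 held both sets of letters on the other strand only, where ATTGG came before ACAGATG, which is not the order of the module. In the direction of the gene, its letters agtgatg before CCAAT differ from ACNGATG in the second letter and were not counted. The 8 member genes in the promoter table were matched by symbol. The ordered pair was found in 3 of these 8 genes and in 0.134% of the 35116 promoters of the table, the X box end, with or without a Y box, in 5 of 8 and 6.35%, and the Y box, with or without an X box end, in 7 of 8 and 32.0%. HLA-DPA1 has a pair of windows in the table, and neither held either motif. A gene was counted if any of its windows matched, while the percentages are over single promoters, members included. The letters are those of the class II module itself, so a higher share in class II genes was set in advance. It says nothing about the arrays. A match describes letters in a window and does not mark a bound site. The search took exact letters only, so an X box with other letters is missed by these counts.

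The hairpin's target was measured first. IL1B, the gene of interleukin-1β, had a signal of 1578 ± 15.8 in LV-shIL-1β cells and 2594 ± 92.6 in LV-shNC cells (SD, n = 3 each) on 1 probe set, and 1170 ± 16.3 and 1957 ± 55.4 on the other. The log2 differences were -0.72 ± 0.04 and -0.74 ± 0.04 (SE), with an adjusted p of 2.46e-05 for both in limma. The target was lower in LV-shIL-1β cells and remained measurable there. Median signal per array was 18.4 to 18.9.

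Differences below are LV-shIL-1β minus LV-shNC on the log2 scale, with the standard error from a limma fit over the 27566 probe sets kept, those above a signal of 18.6 on at least 3 of the 6 arrays. Past the threshold means a Benjamini-Hochberg adjusted p under 0.05 over all kept probe sets. The signal of one probe set cannot be compared in level with that of another, so each gene is compared only with itself.

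The peptide-binding chains were higher in LV-shIL-1β cells, most of all HLA-DPA1. HLA-DPA1, the α chain of HLA-DP, had signals of 106.8, 113.7 and 112.8 in LV-shIL-1β cells, against 35.7, 41.7 and 42.7 in LV-shNC cells, on its brightest probe set (211990_at). The 3 LV-shIL-1β arrays lay together and far above every LV-shNC array, a log2 difference of 1.48 ± 0.08, or 2.78-fold. A second HLA-DPA1 probe set (211991_s_at) had 41.2, 38.2 and 45.4 in LV-shIL-1β cells, against 20.4, 20.7 and 22.0 in LV-shNC cells, a log2 difference of 0.98 ± 0.09. The remaining one (213537_at) was too dim to be tested, with 9.87, 11.8 and 9.52 against 5.48, 5.93 and 7.22, and its groups did not overlap either. The 3 probe sets of HLA-DPA1 thus gave the same direction with log2 differences between 0.75 and 1.48. With 16 added to each signal, the differences were smaller, at 1.18 (211990_at), 0.64 (211991_s_at) and 0.25 (213537_at). HLA-DPB1, the β chain paired with HLA-DPA1, had 76.0, 74.1 and 69.1 in LV-shIL-1β cells, against 46.0, 51.2 and 48.0 in LV-shNC cells (201137_s_at). The groups were apart by more than the range of either, with a log2 difference of 0.60 ± 0.07. The other HLA-DPB1 probe set (244485_at), dim at 3.55 to 4.57 on all arrays, overlapped between the groups (0.07 ± 0.12).

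HLA-DR, the class II molecule with an almost invariant α chain and a polymorphic β chain, was measured by its own α and β probe sets. HLA-DRA had signals of 429, 364 and 398 in LV-shIL-1β cells, against 216, 257 and 267 in LV-shNC cells (208894_at). The lowest LV-shIL-1β array lay well above the highest LV-shNC array, although the arrays of both groups were spread, and the log2 difference was 0.69 ± 0.09. Its second probe set (210982_s_at) was tighter, with 349, 324 and 335 in LV-shIL-1β cells, against 219, 215 and 223 in LV-shNC cells, a log2 difference of 0.62 ± 0.05. HLA-DRB1 had 321, 329 and 343 in LV-shIL-1β cells, against 221, 201 and 209 in LV-shNC cells (208306_x_at). Its log2 difference was 0.66 ± 0.06, close to that of HLA-DRA, and the groups did not overlap. Within an array, the log2 ratio of HLA-DRA over HLA-DRB1 differed between the groups by 0.03, and the groups overlapped in it.

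HLA-DQB1, the β chain of HLA-DQ, was covered by 7 probe sets, of which 4 were bright enough to be kept. The brightest (211654_x_at) had 67.2, 72.5 and 79.0 in LV-shIL-1β cells, against 50.5, 51.9 and 56.4 in LV-shNC cells, a log2 difference of 0.46 ± 0.08. The next (211656_x_at) had 51.8, 49.6 and 50.4 in LV-shIL-1β cells, against 37.9, 40.2 and 36.6 in LV-shNC cells, a difference of 0.41 ± 0.07. Both separated the groups and were past the threshold, but the first was not without LV-shIL-1β array 2. Another (209823_x_at) overlapped, with 37.8, 28.2 and 30.1 against 29.9, 25.8 and 24.3 (0.26 ± 0.13). The last kept probe set (212999_x_at) did not overlap but was spread. It had 25.0, 25.8 and 21.2 in LV-shIL-1β cells, against 14.0, 16.8 and 19.8 in LV-shNC cells (0.52 ± 0.14). It was kept through its LV-shIL-1β arrays, since the LV-shNC arrays at 14.0 and 16.8 lay below the signal limit for keeping a probe set. The remaining 3 were dim and ran from 0.15 to 0.47, 2 of them without overlap. All 7 gave a positive difference. The suffix _x_at, carried by the HLA-DRB1 probe set and by 5 of these, marks probes that can also match related sequences, so these genes may share signal with their relatives.

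**Figure D1:**
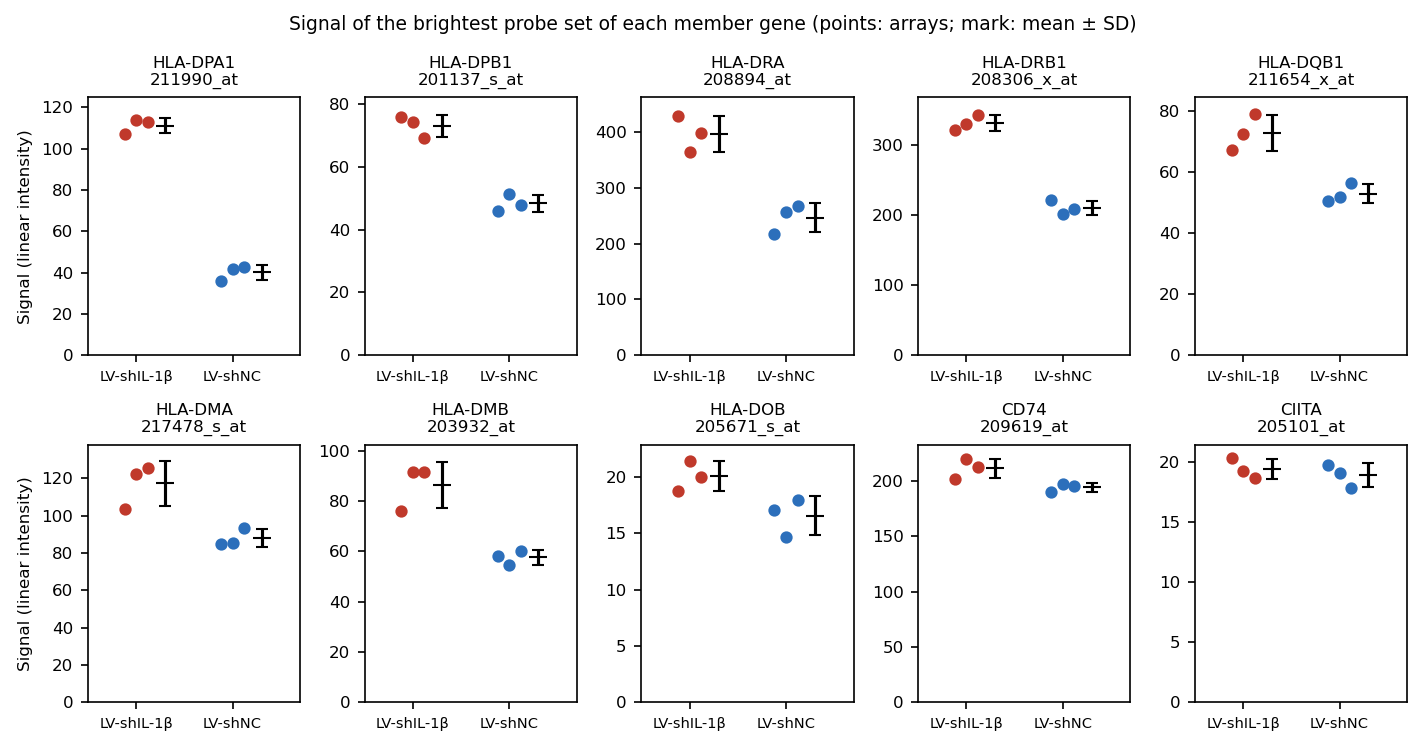
Signal of the brightest probe set of each of the 10 genes on every array, on a linear axis that starts at 0, with LV-shIL-1β at the left of LV-shNC in each panel and the mean ± SD beside the points. The groups are apart in 9 panels, from HLA-DPA1 (107 to 114 in LV-shIL-1β against 35.7 to 42.7 in LV-shNC) to CD74, and overlap for CIITA. Over all probe sets without the filter, 9.86% were apart upwards, and these genes were picked on this contrast. HLA-DOB was kept only through its LV-shIL-1β arrays, and HLA-DOB and CD74 were not past the threshold.

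The 5 probe sets that list several HLA-D genes, all with HLA-DRB genes among them, gave differences in the same direction. The one listing HLA-DRB1, HLA-DRB4, HLA-DRB5 and HLA-DQB1 (209312_x_at) had 248, 246 and 259 in LV-shIL-1β cells, against 152, 152 and 156 in LV-shNC cells, a log2 difference of 0.71 ± 0.05. The one listing HLA-DRB1 and HLA-DRB4 alone (204670_x_at) had 153, 143 and 144 against 93.3, 88.6 and 98.1 (0.65 ± 0.06). The one listing HLA-DRB1, HLA-DRB3, HLA-DRB4 and HLA-DQB1 (215193_x_at) had 134, 128 and 145 against 76.7, 78.8 and 75.7 (0.81 ± 0.07). These 3 were all past the threshold, and the other two were too dim to be kept (0.22 ± 0.15 and 0.64 ± 0.15). Which DRB gene carried the signal cannot be read from these probes.

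The peptide editor was higher as well. HLA-DMA, its α chain, had signals of 104, 122 and 126 in LV-shIL-1β cells, against 84.9, 85.2 and 93.3 in LV-shNC cells (217478_s_at), a log2 difference of 0.41 ± 0.08. LV-shIL-1β array 1 was low among its group and still above each LV-shNC array. Without LV-shNC array 1 or 2, or LV-shIL-1β array 2 or 3, HLA-DMA was no longer past the threshold, with differences of 0.39, 0.39, 0.38 and 0.36. HLA-DMB, its β chain, had 76.0, 91.6 and 91.6 in LV-shIL-1β cells, against 58.2, 54.4 and 60.3 in LV-shNC cells (203932_at), a log2 difference of 0.58 ± 0.09. Array 1 of LV-shIL-1β was again the lowest of its group for HLA-DMB, and the groups did not overlap. The log2 ratio of HLA-DMA over HLA-DMB within an array was lower in LV-shIL-1β cells (0.44 ± 0.02) than in LV-shNC cells (0.61 ± 0.06), a difference of -0.17 without overlap. Each chain was read by 1 probe set, and probe sets of the same gene can differ by more, as for HLA-DPA1 (0.75 to 1.48). Whether the transcripts of the 2 chains differed by unequal amounts therefore cannot be read from this ratio. HLA-DOB, the β chain of HLA-DO, lay close to the signal limit. It had 18.8, 21.4 and 20.0 in LV-shIL-1β cells, against 17.1, 14.6 and 18.0 in LV-shNC cells (205671_s_at). It was kept only because the LV-shIL-1β arrays exceeded the signal limit, and its difference of 0.28 ± 0.11 was not past the threshold. Its second probe set was dim and overlapped (0.09 ± 0.11).

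CD74 and CIITA were not past the threshold on the probe set kept for each. The CIITA signals were low, so a difference in CIITA could be missed. CD74, the invariant chain that guides class II pairs to the endosome, had signals of 202, 220 and 212 in LV-shIL-1β cells, against 190, 197 and 195 in LV-shNC cells (209619_at). The groups did not overlap, but the log2 difference was 0.12 ± 0.06, with a 95% interval of -0.00 to 0.25, and it was not past the threshold. The other two CD74 probe sets were dim, at 0.02 ± 0.11 and -0.16 ± 0.10, the second lower in LV-shIL-1β cells without overlap. CIITA had 20.3, 19.3 and 18.7 in LV-shIL-1β cells, against 19.8, 19.1 and 17.8 in LV-shNC cells (205101_at). The signals were close to the signal limit and overlapped, with a log2 difference of 0.04 ± 0.09 and a 95% interval of -0.17 to 0.25. Its other probe sets, both dim, gave -0.01 ± 0.11 and 0.03 ± 0.14.

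Set against the whole array, 10 of the 15 kept single-symbol probe sets were past the threshold with a higher signal in LV-shIL-1β cells and 0 with a lower one. Of all kept probe sets 3.68% were past it upwards and 3.37% downwards. The 10 past it belonged to 7 genes: HLA-DPA1, HLA-DPB1, HLA-DRA, HLA-DRB1, HLA-DQB1, HLA-DMA and HLA-DMB. Because these genes were picked on this contrast, nothing is read from that count. The groups did not overlap upwards in 16 of the 25 probe sets, against 9.86% of all probe sets without the filter, and downwards in 1, a CD74 probe set, against 10.4%. Taking the brightest probe set of each gene, the median log2 difference of the 10 genes was 0.52, against 0.01 for all kept probe sets.

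**Figure D2:**
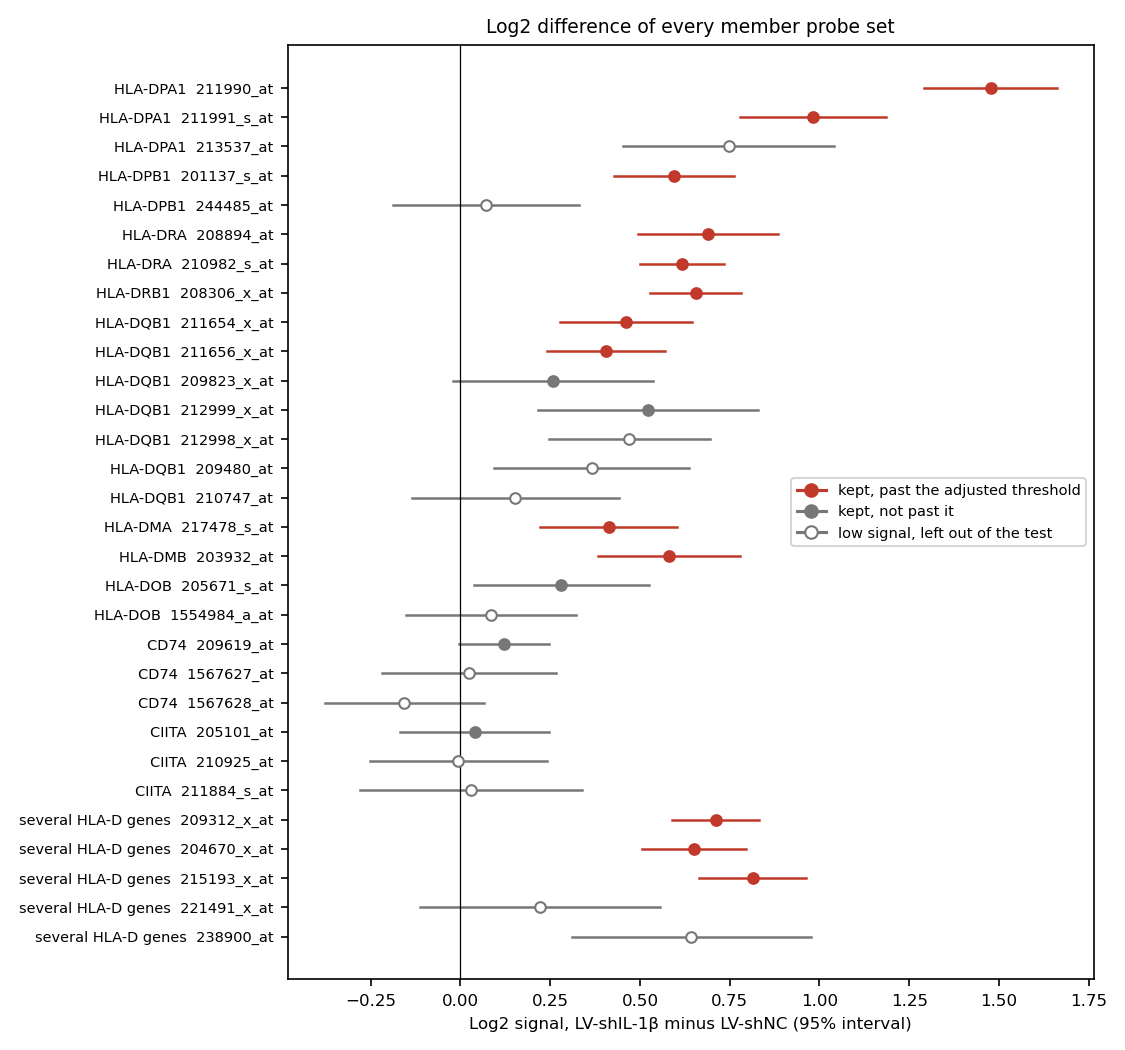
Log2 difference of each of the 30 probe sets, LV-shIL-1β minus LV-shNC, with its 95% interval, grouped by gene. Filled red points were kept and past the adjusted threshold, filled grey points were kept and not past it, and open points were too dim to be tested, so the 3 HLA-DPA1 probe sets lie at the right and the CIITA and CD74 probe sets near 0.

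The size of the difference was unequal among the members' probe sets. The log2 ratio of HLA-DPA1 over HLA-DPB1 within an array was higher in LV-shIL-1β cells by 0.88 on the brightest HLA-DPA1 probe set and by 0.39 on its second, without overlap on either, although both chains belong to 1 molecule. The ratio of HLA-DPA1 over CD74 was higher by 1.35 and 0.86 on these probe sets, and that of HLA-DRA over CD74 by 0.57. HLA-DRA over CIITA was higher by 0.65, and over B2M, the light chain of class I molecules, by 0.73. CIITA lay close to the signal limit, so its ratio mostly restates the HLA-DRA difference and says little about CIITA. The ratios were computed with the same arrays and show unequal differences between probe sets only.

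Among the other genes of the class II pathway, 17 of 25 listed were measured, 0 were higher and 2 were lower in LV-shIL-1β cells past the threshold in limma. Without adjustment, 5 of the 17 had a p under 0.05 in limma and 4 in the methods' t-test, of which 1 remained after adjustment. Their median log2 difference was 0.04, against 0.01 for all kept probe sets. CTSV, a lysosomal cathepsin that trims the invariant chain in human thymic epithelium, was 377 ± 13.6 in LV-shIL-1β cells and 490 ± 4.33 in LV-shNC cells (SD, n = 3 each), a log2 difference of -0.38 ± 0.05 (limma adjusted p = 0.00205). CTSH, a lysosomal aminopeptidase, was 471 ± 23.2 in LV-shIL-1β cells and 603 ± 25.9 in LV-shNC cells, -0.36 ± 0.05 (limma adjusted p = 0.00494). CTSS, the cathepsin that trims the invariant chain in professional antigen-presenting cells, gave 0.14 ± 0.07 (limma adjusted p = 0.259) and 0.28 ± 0.08 on its second probe set (limma adjusted p = 0.0712). Over all 45 kept probe sets of these genes, 1 was higher (RFX5) and 3 were lower (CTSV, CTSH and a CTSB probe set at -0.17).

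The DNA-binding factors on which CIITA docks were measured too. RFX5, the large RFX subunit, gave 0.06 ± 0.06 on its brightest probe set, RFXANK 0.07 ± 0.07 and RFXAP -0.05 ± 0.09, and none of these was past the threshold in limma. A second RFX5 probe set gave 0.28 ± 0.07 and was past it (limma adjusted p = 0.0340), so the 2 probe sets of RFX5 disagree. The second RFXAP probe set gave 0.43 ± 0.21, with overlap (limma adjusted p = 0.269), opposite in sign to the first. NFYA, an NF-Y subunit that binds the Y box, gave 0.21 ± 0.07 (limma adjusted p = 0.0918), while NFYB gave 0.04 and NFYC -0.13, and the other kept probe sets of these 3 genes ran from -0.13 to 0.27, none past the threshold. HLA-DOA, the α chain of HLA-DO, gave -0.04 ± 0.09. HLA-DQA1 had no kept probe set. The dim probe sets that list HLA-DQA1 alone disagreed, with -0.05 and -0.04, both with overlap, and 0.63 without overlap. The dim probe set that lists HLA-DQA1 with HLA-DQA2 (212671_s_at) had 11.0, 12.1 and 12.9 in LV-shIL-1β cells. Its signals in LV-shNC cells were 5.32, 6.59 and 5.60, a log2 difference of 1.04 ± 0.12, or 0.36 with 16 added to each signal. All of these lay outside the test, so a difference in HLA-DQA1 cannot be read from them.

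Regulators of CIITA, such as the interferon-γ receptor and its kinases, were read next in 1 list with genes that interferon-γ induces beside CIITA, such as CXCL10 and GBP1. Of 21 listed, 17 were measured, 1 was higher and 1 lower in LV-shIL-1β cells past the threshold in limma, and their median log2 difference was -0.00. CXCL10, a chemokine induced by interferon-γ, was 301 ± 20.8 in LV-shIL-1β cells and 239 ± 9.29 in LV-shNC cells, 0.33 ± 0.06 (limma adjusted p = 0.0155). CXCL10 was no longer past the threshold once LV-shNC array 2 or LV-shIL-1β array 2 or 3 was left out, with an adjusted p of up to 0.0749. IFNGR2, the second chain of the interferon-γ receptor, was 407 ± 8.50 in LV-shIL-1β cells and 526 ± 10.4 in LV-shNC cells, -0.37 ± 0.05 (limma adjusted p = 0.00185). IRF1, which drives the interferon-responsive CIITA promoter, gave -0.07 ± 0.05, JAK1 0.02 ± 0.05 and IFNGR1 -0.17 ± 0.05 (limma adjusted p = 0.0840). GBP1, a GTPase induced by interferon-γ, gave 0.04 ± 0.05 on its brightest probe set and 0.15, 0.03 and 0.76 on its other kept ones, none past the threshold, the last without overlap (limma adjusted p = 0.0644). IFNG itself, the gene of interferon-γ, was below the signal limit.

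MHC class I genes and co-stimulatory genes were set beside the members as the other arm of antigen presentation. Of 12 class I genes measured, 0 were past the threshold in limma, 1 had an unadjusted p under 0.05 in limma and 1 in the methods' t-test, of which 0 remained after adjustment. Their log2 differences ran from -0.12 to 0.08, with a median of -0.04. HLA-B, a heavy chain, was 3779 ± 98.0 in LV-shIL-1β cells and 3745 ± 147 in LV-shNC cells, and B2M was 6393 ± 499 and 6617 ± 807. A second HLA-E probe set was past the threshold at -0.36 (limma adjusted p = 0.00826). Of 10 T cell co-stimulation and checkpoint ligands measured, 0 were past it in limma on the brightest probe set, 4 had an unadjusted p under 0.05 in limma and 3 in the methods' t-test, of which 0 remained after adjustment, and the median was -0.07. CD40, the receptor by which helper T cells engage antigen-presenting cells, gave -0.25 ± 0.08 on that probe set, and its other probe sets gave -0.77 and -0.50, past the threshold (limma adjusted p = 0.00250 and 0.00789).

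**Figure D3:**
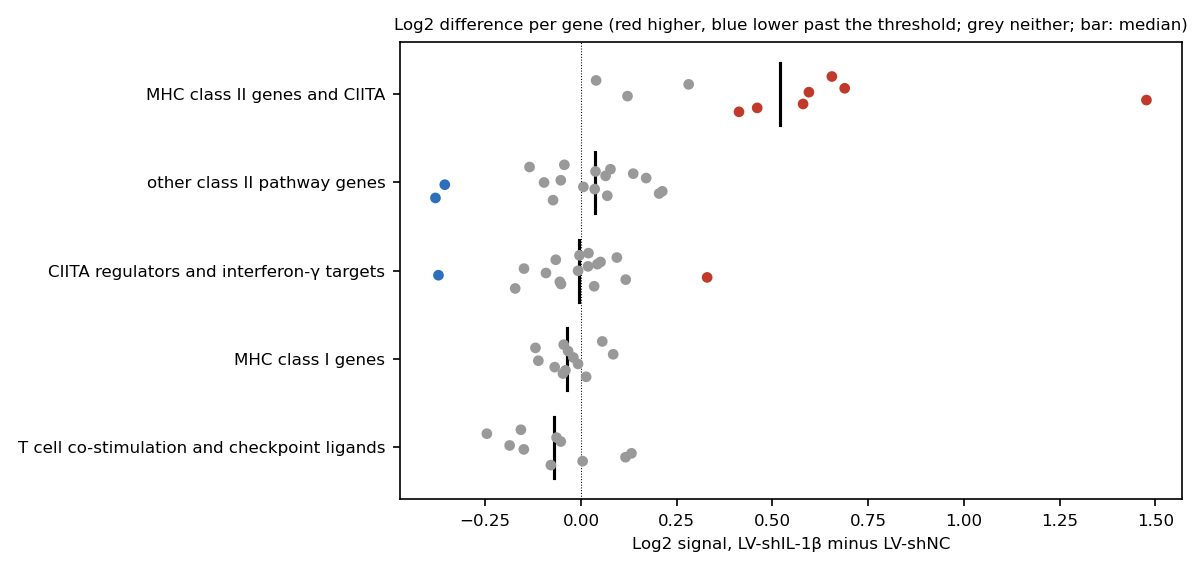
Log2 difference, LV-shIL-1β minus LV-shNC, of the brightest probe set of each gene in 5 groups, with a bar at each median. Red and blue points were past the adjusted threshold upwards and downwards. The members, which were picked on this contrast, lie to the right with a median of 0.52. The other groups lie around 0, with medians of 0.04, -0.00, -0.04 and -0.07.

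The members other than CD74 and CIITA lie in the class II region of chromosome 6, so their neighbours were examined in the order of the RefSeq table, from BTNL2 to RING1. Of 19 neighbours that are no members, 13 were measured, 1 was higher and 1 lower in LV-shIL-1β cells past the threshold in limma, and the median log2 difference was 0.02. HLA-DRB6, a DRB pseudogene between HLA-DRA and HLA-DRB1, was 54.0 ± 3.43 in LV-shIL-1β cells and 39.3 ± 2.40 in LV-shNC cells, 0.46 ± 0.08 (limma adjusted p = 0.0104). Its probe set is an _x_at set that can match DRB1 transcripts, and it was not past the threshold once LV-shIL-1β array 2 was left out (limma adjusted p = 0.0648). HSD17B8, a hydroxysteroid dehydrogenase near RING1, gave -0.26 ± 0.05 (limma adjusted p = 0.0228), and was not past the threshold once LV-shNC array 2 or 3 or LV-shIL-1β array 2 or 3 was left out (limma adjusted p up to 0.0895). On their brightest probe sets, the other genes among the members were TAP2 (-0.02), PSMB8 (-0.04), PSMB8-AS1 (0.13), TAP1 (-0.01), PSMB9 (0.08), BRD2 (0.00) and HLA-DOA (-0.04), none past the threshold, and the dim HLA-DQA1 (0.63, without overlap), HLA-DQB2 (-0.25) and LOC100294145 (-0.02), which were not tested. TAP1 and TAP2 carry peptides for class I, and PSMB8 and PSMB9 are immunoproteasome subunits.

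**Figure D4:**
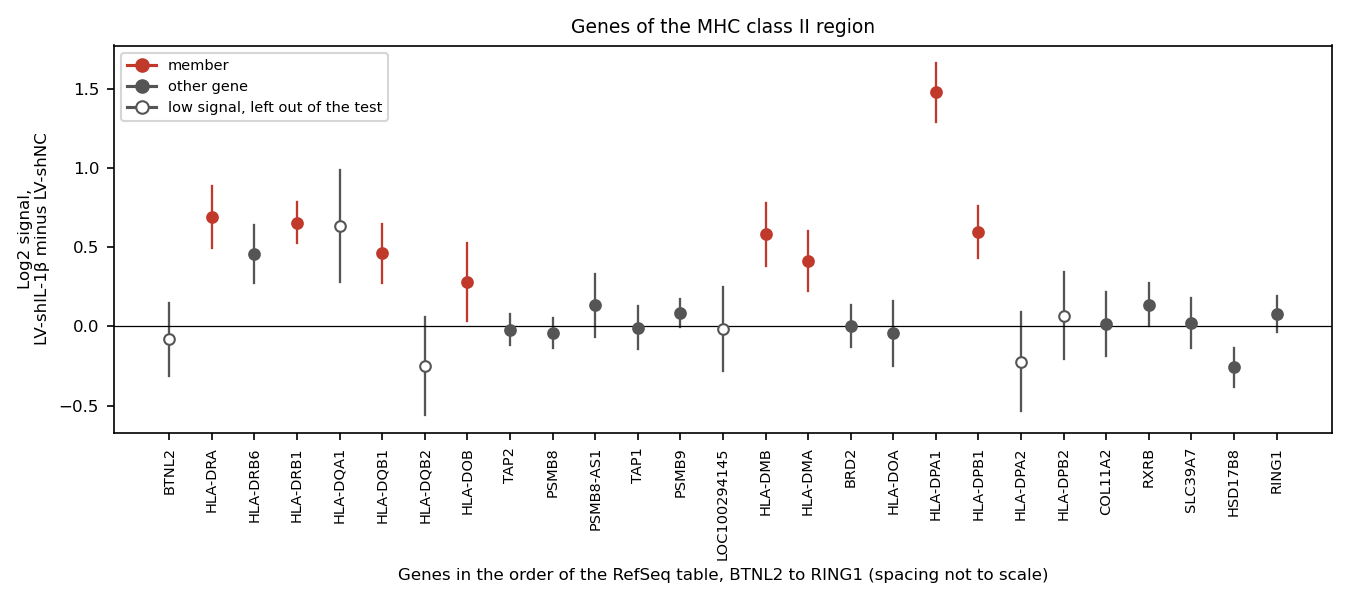
Log2 difference, LV-shIL-1β minus LV-shNC, with its 95% interval, of the brightest probe set of each gene in the class II region, in the order of the RefSeq table and not to scale. Red points are members and open points were too dim to be tested. The members, which were picked on this contrast, lie above 0 on both sides of the genes from TAP2 to PSMB9, which lie near 0.

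Markers of other cell types were read on the same arrays. Of 15 leukocyte and antigen-presenting cell markers with a probe set, 12 had no probe set above the signal limit on 3 arrays, and PTPRC, the pan-leukocyte marker, had at most 2.95 over its 5 probe sets. The summed signal of this list was 288 to 300 in LV-shIL-1β arrays and 282 to 298 in LV-shNC arrays. CD14, a monocyte marker that epithelial cells can also carry, was higher in LV-shIL-1β cells, at 70.4 ± 4.07 against 49.5 ± 2.76, 0.51 ± 0.08 (limma adjusted p = 0.00454). The other two kept markers were CD79A, a B cell receptor component, at -0.33 ± 0.12 (limma adjusted p = 0.127), and LAPTM5, a lysosomal protein of blood cells, at -0.12 ± 0.07 (limma adjusted p = 0.341). Of 7 epithelial markers, 3 were lower past the threshold, KRT5, KRT14 and PKP1, at -0.32, -0.35 and -0.40. The other 4 were not, with DSG3 at -0.10, SFN at 0.01, CDH1 at 0.04 and EPCAM at 0.06, and the median was -0.10. The list summed to 20044 to 20440 in LV-shIL-1β arrays and 22070 to 22940 in LV-shNC arrays. As a sign of RNA quality, the log2 ratio of the 3′ over the 5′ control probe set of GAPDH was 0.02 to 0.05 in LV-shIL-1β arrays and -0.06 to 0.01 in LV-shNC arrays, without overlap, and that of ACTB overlapped. The part of CD14, the epithelial markers and the GAPDH ratio in the members' differences was not tested.

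The genes most like HLA-DPA1 over the 6 arrays, by Pearson correlation of log2 signal with its brightest probe set, were DNAJA1, a co-chaperone (r = 0.999), S100A7, an antimicrobial epithelial protein (r = 0.997), C1S, a complement protease (r = 0.995), ETV5, an ETS factor (r = 0.995), and STEAP2, a metalloreductase (r = 0.995). Among the members, r ran from 0.986 for the second HLA-DPA1 probe set to 0.243 for CIITA. With 2 groups of 3 arrays, the difference between the groups sets most of each r, so these are descriptions. S100A7 was 2634 ± 71.6 in LV-shIL-1β cells and 1539 ± 41.6 in LV-shNC cells, a log2 difference of 0.78 ± 0.04, and ETV5 was 85.0 ± 3.64 and 47.6 ± 1.14, a difference of 0.84 ± 0.07.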

How the data were processed

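Cal27 lines were profiled on 3 arrays a group, LV-shIL-1β and LV-shNC, and groups were taken from the labels. The authors deposited linear signal intensities, 1 per probe set and array. MAS5 is named in the submitters' processing notes; its version and settings are not given in the sources. Precision is limited by the 3 arrays a group. The deposited signals were log2-transformed with no further scaling, the 62 control probe sets were left out, and probe sets above a signal of 18.6 (the median of all values) on at least 3 of the 6 arrays were kept, which left 27566. The main model was lmFit and eBayes with trend (limma 3.58.1, R 4.3.3), two-sided, with p-values adjusted by Benjamini-Hochberg at 0.05. The fit was tested on simulated data in 10 runs. Symbols came from the platform annotation, in which 41097 probe sets list 1 symbol. Of these, 41043 were matched to RefSeq (GRCh38.p14).

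A gene outside the members was represented by its brightest kept probe set. Members, lists and motifs were chosen with earlier results of these data known. Named were every member, IL1B, the genes of each list past the threshold with up to 4 more by role, and the 5 genes most like HLA-DPA1. Second probe sets of RFX5, RFXAP, CTSS, CTSB, GBP1, HLA-E and CD40, and further genes given by role, were added after their values were seen. Alternatives were quantile normalization, median centring, a pseudocount of 16, other filters, no trend, a replicate block, leaving out each array and the methods' t-test. Hairpin sequences and detection calls were not used here.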

Additional observations from a re-analysis of the deposited data

How the results depend on the processing

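No called value changed sign under the alternatives run. CIITA ran from -0.00 to 0.07 when 1 array was left out. The median log2 difference of the 10 genes was 0.42 with log2(signal + 16), against 0.52, and 0.47 to 0.55 when 1 array was left out. Of the members' single-symbol probe sets, 10 were past the threshold, 8 to 11 when 1 array was left out, 8 with the replicate block, and 4 with the methods' t-test after adjustment. Over all kept probe sets, 1014 were higher and 929 lower in LV-shIL-1β cells. When 1 array was left out, 251 to 1025 were higher and 421 to 746 lower, lowest without LV-shIL-1β array 2 (251 and 421), and leaving out any array but LV-shIL-1β array 1 moved both by over 1.5 times. The methods' t-test gave 106 higher and 161 lower after adjustment. Centring each array on its median over all probe sets gave 1195 higher and 844 lower, and over kept probe sets, an alternative chosen after seeing the data, 886 and 1189. The other scaling, quantile normalization, gave 951 and 1087. Fitting without a trend gave 681 and 667, and testing all probe sets without a filter 746 and 753. The list of CIITA regulators and interferon-γ targets held 1 to 3 calls and the region's other genes 0 to 2 when 1 array was left out. The cause of these shifts was not tested.

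Replicate numbers are shared by the groups, and the sources do not state whether they pair the arrays. The deviations of arrays with the same number correlated at -0.39, -0.11 and -0.21, and 0 of the 3 LV-shIL-1β arrays correlated best with its own number. With 3 arrays a group, these values cannot decide whether the arrays are paired. With the replicate block, 255 probe sets were higher and 313 lower, and 1 gene of the list of CIITA regulators and interferon-γ targets and 1 of the region's other genes were past the threshold. HLA-DMA and 1 HLA-DQB1 probe set (211656_x_at) were not.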
